A study of Sus scrofa with 9 samples.

Results

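Transcripts of the CXC and CC chemokines were examined in the myocardium of donor pig hearts. Of 10 chemokine symbols looked for (CXCL2, CXCL8, CXCL9, CXCL10, CXCL12, CXCL14, CXCL16, CCL2, CCL4 and CCL5), 5 were found by gene symbol among the 25149 genes of the expression table. These were CXCL2 (ENSSSCG00000008959), CXCL8 (ENSSSCG00000008953), CXCL14 (ENSSSCG00000014310), CCL2 (ENSSSCG00000017723) and CCL5 (ENSSSCG00000017705). CXCL9, CXCL10, CXCL12, CXCL16 and CCL4 were not analysed here.

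The study asked how donation-after-circulatory-death hearts tolerate long oxygenated cold perfusion, and what regional perfusion of the donor contributes. All 9 hearts came from female American Yorkshire pigs aged 4 to 6 months, went through 15 min of warm ischemia without circulation, and were rewarmed for 2 h by normothermic machine perfusion (NMP) on a circuit primed with donor blood. Group 1 (NRP + HOPE 24 h, pigs 27, 28 and 30) received 60 min of normothermic regional perfusion (NRP), the return of warm circulation inside the donor, and then 24 h of hypothermic oxygenated perfusion (HOPE) at 8 °C. Group 2 (NRP + SCS 2 h, pigs 24, 25 and 29) received the same NRP and then 2 h of static cold storage (SCS) at 4 °C. Group 3 (No NRP + HOPE 2 h, pigs 31, 33 and 34) was flushed and removed with no NRP and kept for 2 h in HOPE at 8 °C. Method, duration and temperature of storage therefore differ together between Groups 1 and 2, NRP, storage method and temperature differ together between Groups 2 and 3, NRP and storage time differ together between Groups 1 and 3, and these parts cannot be told apart. The HOPE perfusate, unlike the static solution, contained donor red cells. Each heart gave 1 apex biopsy at the end of NMP, so the values describe tissue after rewarming.

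Chemokines are small secreted proteins that guide leukocytes along gradients, and they are grouped as CXC or CC by the spacing of their first cysteines. They bind G protein-coupled receptors on the leukocyte and are held on the vessel wall by sulfated proteoglycans such as syndecans and glypicans. In the heart, ischemia followed by reperfusion is known to induce several of them, in part through NF-kB, a transcription factor that also induces its own inhibitors.

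Expression was given as TPM, the reads of a gene divided by its length and brought to the same sum in every heart, so levels can be set beside each other between genes as well as between hearts. The biopsies carry the label Cardiomyocytes, and cardiomyocyte markers were abundant (TNNT2, cardiac troponin T, at 7220 to 15218 TPM), but endothelial markers summed to 228 to 542 TPM and fibroblast markers to 700 to 1210 TPM, so whole myocardium was measured. In such tissue fewer cells of a type and less RNA per cell cannot be told apart. The share of TPM from the 13 mitochondrially encoded genes lay between 44.8% and 55.3% in 8 hearts and was 38.2% in pig 30.

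The 5 chemokines differed widely in level. CCL2, which attracts monocytes, ranked between 24 and 53 among all 25149 genes in every heart, at 1152 to 4867 TPM. CXCL2, a neutrophil attractant, spanned 50.1 to 1468 TPM and ranks 38 to 1299. CXCL8 (interleukin 8), also a neutrophil attractant, lay between 2.90 and 74.2 TPM. CCL5 (RANTES), which attracts T cells and monocytes, spanned 1.602 to 6.63 TPM, and CXCL14, a chemokine made constitutively in many tissues, 0.44 to 5.37 TPM. In 8 of 9 hearts the order was CCL2, CXCL2, CXCL8, CCL5 and CXCL14 from highest to lowest. The exception was pig 29, where CCL5 at 4.87 TPM lay above CXCL8 at 2.90 TPM. All 5 passed the filter of at least 1 TPM in at least 3 hearts, CXCL14 with 6 hearts at or above 1 TPM and the other 4 with all 9.

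Hearts of 1 group differed more in the neutrophil attractants than in most genes. On the log2(TPM + 1) scale the SD within groups was 1.09 for CXCL2, 1.03 for CXCL8 and 0.73 for CXCL14, which lay at the percentiles 97.3, 96.7 and 90.4 of the 11782 genes that passed the filter. It was 0.51 for CCL2 and 0.49 for CCL5, nearer to the median over those genes, 0.42. From the lowest to the highest of the 9 hearts, CXCL2 spanned 29.3-fold and CXCL8 25.6-fold, against 4.23-fold for CCL2 and 4.14-fold for CCL5.

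**Figure D1:**
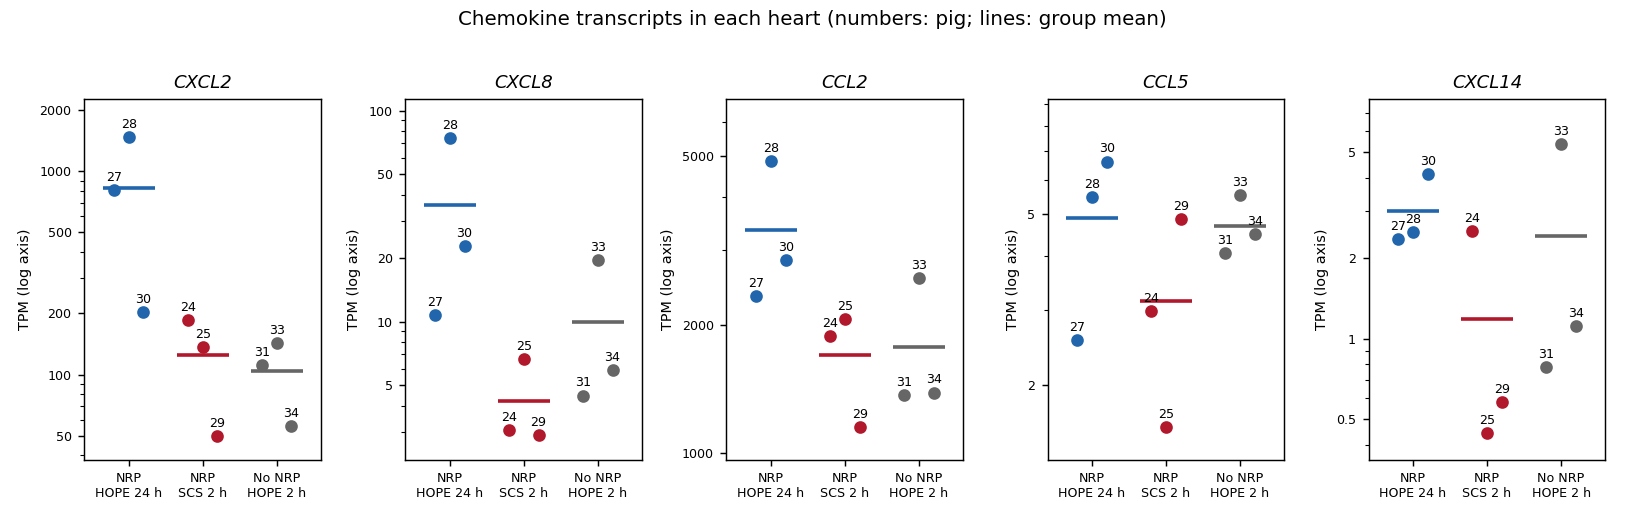
TPM (log axis) of each chemokine in each heart by group, with the pig number above each point and a line at the group mean. For CXCL2, CXCL8 and CCL2 the 3 hearts of Group 1 (NRP + HOPE 24 h) lie above the 3 of Group 2 (NRP + SCS 2 h), by the smallest margin for CXCL2 (202 TPM in pig 30 and 185 TPM in pig 24).

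The neutrophil attractants come first. CXCL2 was at 804 TPM in pig 27, 1468 in pig 28 and 202 in pig 30 of Group 1, a mean of 825 ± 633 (SD, n = 3). In Group 2 it was at 185 TPM in pig 24, 137 in pig 25 and 50.1 in pig 29, a mean of 124 ± 68.4 (SD, n = 3). In Group 3 it was at 111 TPM in pig 31, 144 in pig 33 and 56.1 in pig 34, a mean of 104 ± 44.3 (SD, n = 3). Pigs 27 and 28 stood far above all other hearts, while pig 30 lay only just above the highest heart of the short storage groups.

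CXCL8 was at 10.8 TPM in pig 27, 74.2 in pig 28 and 22.8 in pig 30 of Group 1, a mean of 35.9 ± 33.7 (SD, n = 3). In Group 2 it was at 3.08 TPM in pig 24, 6.67 in pig 25 and 2.90 in pig 29, a mean of 4.22 ± 2.13 (SD, n = 3). In Group 3 it was at 4.47 TPM in pig 31, 19.6 in pig 33 and 5.90 in pig 34, a mean of 9.98 ± 8.34 (SD, n = 3). Group 1 did not overlap with Group 2, but pig 33 of Group 3 lay above pig 27 of Group 1.

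CXCL2 and CXCL8 belong to 1 gene cluster. In the RefSeq annotation of assembly Sscrofa11.1, 5 genes lie between them, namely AMCF-II, PPBP, 2 protein-coding genes without a name and 1 pseudogene. The authors counted reads that map to 1 place, so reads shared with a close copy would be lost, and the level of CXCL2 is uncertain to that extent.

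CCL2 was at 2340 TPM in pig 27, 4867 in pig 28 and 2844 in pig 30 of Group 1, a mean of 3351 ± 1338 (SD, n = 3). In Group 2 it was at 1882 TPM in pig 24, 2064 in pig 25 and 1152 in pig 29, a mean of 1699 ± 483 (SD, n = 3). In Group 3 it was at 1373 TPM in pig 31, 2579 in pig 33 and 1389 in pig 34, a mean of 1780 ± 692 (SD, n = 3). Pig 29 was again the lowest heart of Group 2, and pig 33 alone of the short storage hearts reached into the range of Group 1.

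CCL5 was at 2.55 TPM in pig 27, 5.49 in pig 28 and 6.63 in pig 30 of Group 1. It was at 2.97, 1.602 and 4.87 TPM in pigs 24, 25 and 29 of Group 2, and at 4.07, 5.54 and 4.51 TPM in pigs 31, 33 and 34 of Group 3. All 3 groups overlapped, with means of 4.89 ± 2.11, 3.15 ± 1.64 and 4.70 ± 0.753 TPM (SD, n = 3 each).

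CXCL14 was at 2.37, 2.51 and 4.14 TPM in pigs 27, 28 and 30 of Group 1. It was at 2.52, 0.44 and 0.58 TPM in pigs 24, 25 and 29 of Group 2, and at 0.78, 5.37 and 1.11 TPM in pigs 31, 33 and 34 of Group 3. Its highest heart was pig 33 and its lowest pig 25, and the groups overlapped, with means of 3.00 ± 0.982, 1.18 ± 1.16 and 2.42 ± 2.56 TPM (SD, n = 3 each).

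The hearts also differed in which of them was highest. In Group 3 pig 33 was the highest heart for 5 of 5 chemokines. In Group 1 pig 28 was the highest for 3 (CXCL2, CXCL8 and CCL2) and pig 30 for the other 2. In Group 2 pigs 24, 25 and 29 were the highest for 2, 2 and 1.

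The first comparison set 24 h of HOPE after NRP against the 2 h of static storage after NRP. Differences were tested with limma on log2(TPM + 1) over the 11782 genes, with Benjamini-Hochberg adjustment over all of them, and fold changes are on that scale, which understates the change of low genes. CXCL2 was higher in Group 1 by 2.504 (log2 fold change, SE 0.63, 95% confidence interval 1.15 to 3.86, limma adjusted p = 0.358). CXCL8 was higher by 2.48 (SE 0.61, interval 1.16 to 3.80, limma adjusted p = 0.344). CCL2 was higher by 0.95 (SE 0.33, interval 0.25 to 1.66, limma adjusted p = 0.798). For CXCL14 the difference was 0.97 (SE 0.49, interval -0.08 to 2.03, limma adjusted p = 0.993) and for CCL5 0.51 (SE 0.38, interval -0.31 to 1.33, limma adjusted p = 0.993).

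A gene was called at an adjusted p under 0.05 and a change of more than 1 on the log2 scale. Of the 5 chemokines 0 were called, where 0.0255% of all genes were. At an unadjusted limma p under 0.05, 3 of 5 were higher in Group 1 and 0 lower, against 4.97% of all genes in either direction and 1.82% in the higher direction. With limma's array weights, which down-weight hearts that deviate over many genes, 2 of 5 passed the adjusted threshold, CXCL2 with a log2 fold change of 3.17 (adjusted p = 0.0289) and CXCL8 with 3.09 (adjusted p = 0.0431), and calls over all genes rose with these weights too, to 0.509%, with 15.4% at an unadjusted limma p under 0.05. All 3 hearts of Group 1 lay above all 3 of Group 2 for 3 of 5 chemokines, against 2.5% of all genes in that direction and 9.82% in either. For CXCL2 this rested on the scaling, since after median-of-ratios scaling pig 30 at 150.5 lay under pig 24 at 171, and after removal of the mitochondrially encoded genes at 327 under 360. In both cases CXCL14, which overlapped in TPM, did not overlap, so the count stayed at 3. In TPM, for each of the 3 the exact permutation test gave p = 0.1, two-sided, which is the smallest that 3 hearts against 3 allow, and 0.375 after adjustment over the 15 such tests of the 5 chemokines.

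The size of the difference rested on single hearts. Without pig 28 the log2 fold change was 1.88 for CXCL2, 1.76 for CXCL8 and 0.65 for CCL2, and CCL2 no longer reached an unadjusted limma p under 0.05. Without pig 29 of Group 2 the value for CCL2 was 0.69, again not under that level. The median log2 fold change over the 5 chemokines was 0.97, and 5 of 5 were above 0, where the median over all genes was -0.12 and 35.9% of genes were above 0. Pigs 27 and 28 had a mitochondrial share of 55.3% and 54.7% and pig 30 of 38.2%, and the range in Group 2 was 48.5% to 52.7%. After removal of the mitochondrially encoded genes the log2 fold changes of CXCL2, CXCL8 and CCL2 were 2.503, 2.599 and 0.943.

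**Figure D2:**
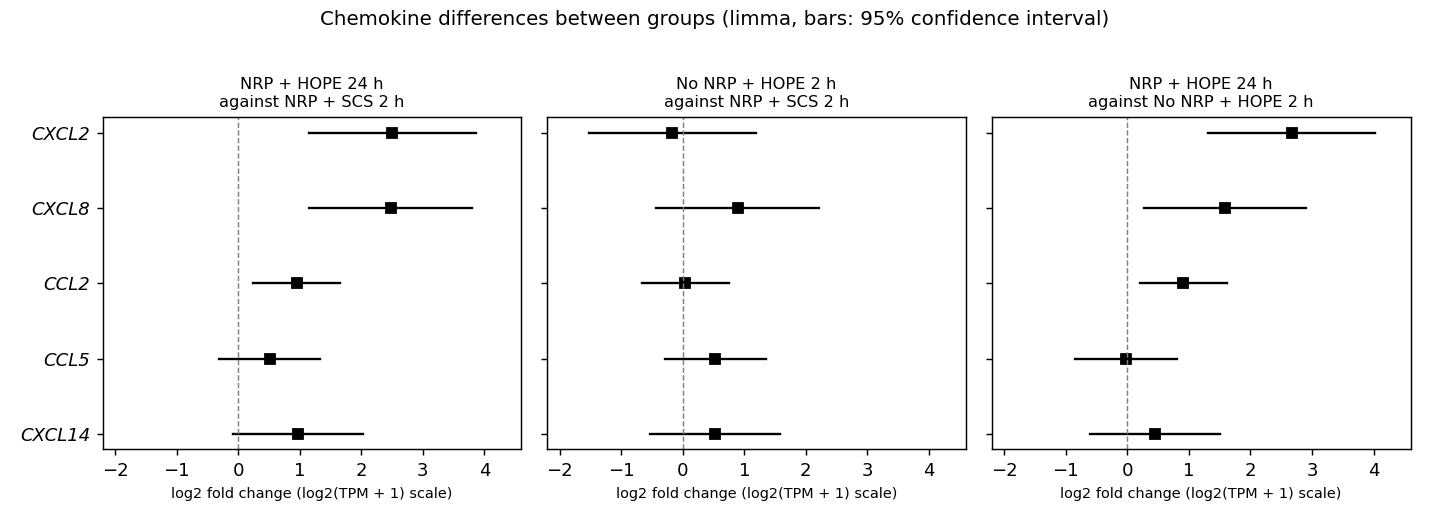
Log2 fold change (horizontal axis, log2(TPM + 1) scale) of each chemokine in the 3 comparisons, with squares for the limma estimate and bars for the 95% confidence interval. The intervals of CXCL2, CXCL8 and CCL2 lie above 0 in both comparisons with Group 1 (NRP + HOPE 24 h), and all 5 include 0 for Group 3 against Group 2.

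The second comparison set hearts without NRP, kept in HOPE for 2 h, against hearts with NRP in static storage for 2 h, and it shares the Group 2 hearts with the first. The log2 fold change of CXCL2 was -0.17 (SE 0.63, interval -1.52 to 1.19, limma adjusted p = 0.979) and that of CCL2 was 0.05 (SE 0.33, interval -0.66 to 0.75, limma adjusted p = 0.990). For CXCL8 it was 0.89 (SE 0.61, interval -0.43 to 2.21, limma adjusted p = 0.828), for CXCL14 0.53 (interval -0.53 to 1.58) and for CCL5 0.53 (interval -0.29 to 1.35). The direction of 3 of these differences turned with 1 heart left out. CXCL2 became 0.21 without pig 24 and 0.22 without pig 34. CCL2 became -0.21 without pig 29 and -0.25 without pig 33. CXCL14 became -0.0452 and CXCL8, with its direction kept, 0.31 without pig 33, and CCL5 became 0.23 without pig 25 and 0.82 without pig 29.

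Of the 5 chemokines 0 were called, where 0.0509% of all genes were, and 0 of 5 reached an unadjusted limma p under 0.05, where 7.22% of all genes did. With array weights 3 of 5 reached the unadjusted level (CXCL8, CXCL14 and CCL5, with log2 fold changes of 1.41, 1.22 and 0.77) and 0 were called, where 15.8% of all genes reached that level and 0.798% were called with the same weights. The groups overlapped for every one of the 5, while 14.7% of all genes did not overlap. The log2 fold change was above 0 for 4 of 5, where 42.2% of all genes were above 0, and the medians were 0.53 and -0.07. The intervals show what 3 hearts a group leave undecided, since for CXCL2 they include a difference of more than 2-fold in either direction.

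The third comparison set 24 h of HOPE with NRP against 2 h of HOPE without it, Group 1 against Group 3, and shares its hearts with the other two. CXCL2 was higher in Group 1 by 2.67 (log2 fold change, SE 0.63, interval 1.32 to 4.03, limma adjusted p = 0.270) and did not overlap between the groups. CXCL8 was higher by 1.59 (SE 0.61, interval 0.27 to 2.91, limma adjusted p = 0.743) and CCL2 by 0.91 (SE 0.33, interval 0.20 to 1.61, limma adjusted p = 0.670), both with overlap through pig 33. CXCL14 differed by 0.45 (interval -0.61 to 1.502), or by -0.30 with array weights, and CCL5 by -0.02 (interval -0.84 to 0.81). The value of CXCL2 ranged from 2.05 to 3.48 with each heart left out. That of CXCL8 was 0.87 without pig 28 and 2.20 without pig 27, and that of CCL2 was 0.60 without pig 28.

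Here too 0 of 5 were called, where 0.0509% of all genes were, and 0 of 5 were with array weights, where 0.119% of all genes were. At the unadjusted level array weights also gave 3 of 5, against 15.9% of all genes. At an unadjusted limma p under 0.05, 3 of 5 were higher, against 6.01% of all genes in either direction and 2.78% in the higher one. That count was 1 without pig 28, without pig 31 or without pig 34. The groups did not overlap for 1 of 5, against 7.48% of all genes and 2.97% in the higher direction. The log2 fold change was above 0 for 4 of 5, where 46.1% of all genes were above 0, and the medians were 0.91 and -0.03.

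Next, the chemokine transcripts were summed. By symbol 17 chemokine genes were found in all, the 5 above and 12 others. Any chemokine among the genes without a symbol is left out of the sum. Their summed level was 3197 TPM in pig 27, 6542 in pig 28 and 3140 in pig 30 of Group 1, 1237 to 2246 TPM in Group 2 and 1502 to 2799 TPM in Group 3. Group 1 lay above both other groups (p = 0.1 against each in the exact permutation test, 0.3 after adjustment over 15 tests of 5 such measures), and Groups 2 and 3 overlapped (exact p = 1). The sum depends on the scaling between hearts. After median-of-ratios scaling pig 30 of Group 1 at 2338 lay under pig 33 of Group 3 at 2595, and after removal of the mitochondrially encoded genes at 5081 under 5499, while Group 1 still lay above Group 2.

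Shares and ratios within a heart do not depend on that scaling. CCL2 and CXCL2 together made up 96.2% to 98.4% of that sum in the 9 hearts. CCL2 alone was 73.2% in pig 27, 74.4% in pig 28 and 90.6% in pig 30 of Group 1 and 89.0% to 93.1% in the 6 other hearts. Pigs 27 and 28 were thus set apart by a larger share of CXCL2, and pig 30 was not.

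The ratio of CCL2 to CXCL8 separated the static storage hearts from the perfused ones. It was 611 in pig 24, 309 in pig 25 and 398 in pig 29 of Group 2. It was 216, 65.6 and 125 in pigs 27, 28 and 30 of Group 1, and 307, 132 and 235 in pigs 31, 33 and 34 of Group 3. All 6 HOPE hearts lay below the 3 SCS hearts, but pig 31 at 307 and pig 25 at 309 were nearly level (exact permutation test, p = 0.1 for each HOPE group against Group 2, 0.3 after adjustment over the 15 tests). The 2 HOPE groups overlapped (exact p = 0.2). This ratio was singled out after its values were seen. The ratio of CXCL2 to CXCL8 spanned 8.88 to 74.4 within Group 1 alone and overlapped between all groups.

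Of the 5 pairs of chemokines to be compared across hearts, the 2 with both genes in the table were computed on log2(TPM + 1). CCL2 and CXCL8 moved together over the 9 hearts (Pearson r = 0.93, permutation p = 0.000433, adjusted over 2 pairs 0.000865; Spearman rho = 0.95, permutation p = 0.000353, adjusted 0.000705). Without pigs 28 and 29, the hearts farthest from the median of CCL2, r was 0.81 over 7 hearts (permutation p = 0.0347). Taken as deviations from the group means, which removes the differences between groups, r was 0.91. CXCL2 and CXCL8 were less closely tied (Pearson r = 0.73, permutation p = 0.0268, adjusted 0.0268; Spearman rho = 0.75, permutation p = 0.0255, adjusted 0.0255). Without pigs 27 and 28 r was 0.50 over 7 hearts (permutation p = 0.225), so this second relation rests on those hearts, and as deviations from the group means it was 0.43. The labels give no sequencing batch within which to repeat either value.

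**Figure D3:**
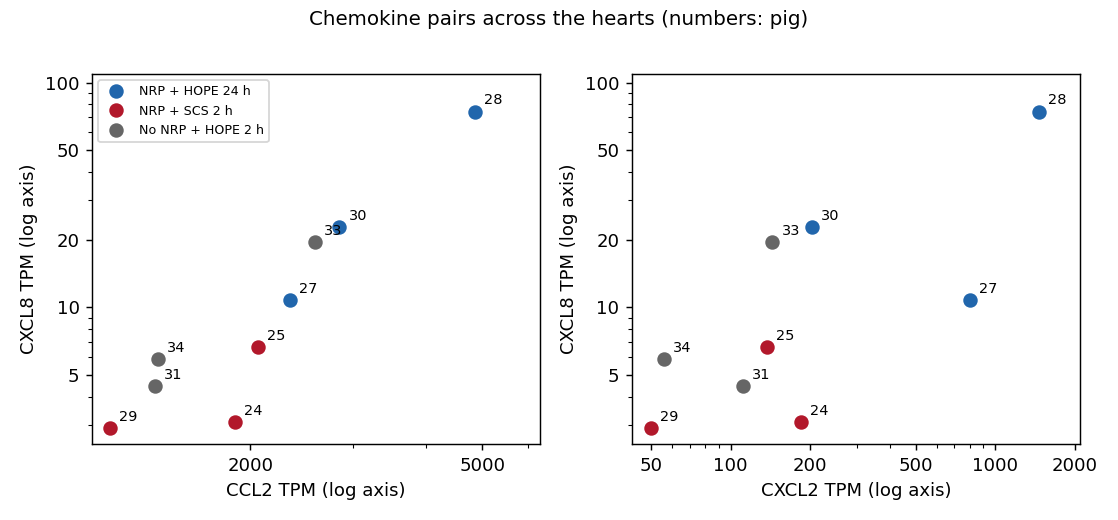
CXCL8 against CCL2 (left) and against CXCL2 (right) in TPM on log axes, with 1 point per heart coloured by group and numbered by pig. CXCL8 follows CCL2 closely (r = 0.93 on log2(TPM + 1)), while pig 27 has 804 TPM of CXCL2 at only 10.8 TPM of CXCL8.

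The genes most like CXCL8 over the 9 hearts were sought among 7671 genes with a symbol, as a description with no test, since all points share their libraries. They were EIF1, a translation initiation factor, with r = 0.966, TGIF1, a transcriptional repressor, with 0.947, IL2RA, a chain of the interleukin 2 receptor, with 0.946, C15orf48 with 0.935 and CCL2 with 0.929. For CCL2 they were EIF1 with r = 0.946, FOSL1, a subunit of AP-1, with 0.942, ADORA2A, an adenosine receptor, with 0.938, PLEK, the leukocyte and platelet protein pleckstrin, with 0.935 and TGIF1 with 0.934. EIF1 thus led both orders, and CXCL2 came only at place 23 for CCL2 and at place 102 for CXCL8.

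Of 35 other chemokine symbols, 12 were found and 6 passed the filter. Of these 6, 0 reached an unadjusted limma p under 0.05 between Group 1 and Group 2, 0 in the second comparison and 1 in the third, beside 4.97%, 7.22% and 6.01% of all genes, and 0 were called in any. With array weights 2, 2 and 1 reached that level, beside 15.4%, 15.8% and 15.9% of all genes, and 0 were called. The gene of the third comparison was AMCF-II, a porcine neutrophil attractant that lies next to CXCL8. It was at 7.65 TPM in pig 27, 83.4 in pig 28 and 6.31 in pig 30 of Group 1, at 5.37, 10.51 and 1.01 TPM in pigs 24, 25 and 29 of Group 2, and at 1.18 and 3.38 TPM in pigs 31 and 33 of Group 3, with pig 34 listed at 0. Pig 28 stood alone, as it did for CXCL8. Between Group 1 and Group 3 the log2 fold change was 3.04 (SE 0.85, limma adjusted p = 0.402), or 1.91 without pig 28 and 4.39 with a pseudocount of 0.1, and it was 1.73 against Group 2 (limma adjusted p = 0.993).

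CX3CL1 (fractalkine), a membrane-bound chemokine of the endothelium, had the highest mean of the 12 over Groups 2 and 3 and lay under AMCF-II in pig 28. It was at 13.5, 17.9 and 33.6 TPM in pigs 27, 28 and 30, at 12.7 to 15.4 TPM in Group 2 and at 6.25 to 27.6 TPM in Group 3. CCL19, which draws T cells and dendritic cells, was at 2.34 to 10.2 TPM over the 9 hearts. CCL22 was the 1 gene of the 6 whose hearts in Group 1 (2.70 to 6.59 TPM) all lay above Group 2 (1.90 to 2.43 TPM), beside 2.5% of all genes, and it was named after its values were seen (log2 fold change 0.72, limma adjusted p = 0.993). In every heart the 12 genes together summed to less than CXCL2 alone.

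The receptors ranged from genes listed at 0 to ACKR3, which lay between 35.3 and 255 TPM. Of 22 receptor symbols 16 were found, 4 of them listed at 0 in every heart, and 5 passed the filter. Of these 5, 0 reached an unadjusted limma p under 0.05 in any of the 3 comparisons, beside 4.97%, 7.22% and 6.01% of all genes. With array weights 0, 2 and 0 did, beside 15.4%, 15.8% and 15.9% of all genes, and 0 were called. The 2 were CCR7 and CCRL2. CCR2, the receptor of CCL2, did not exceed 0.93 TPM in any heart, and CXCR3 did not exceed 1.13 TPM. CXCR6 lay between 0.56 and 2.37 TPM. CCR7, named after its values were seen, was the 1 receptor of 5 that did not overlap between Group 1 (0.78 to 3.06 TPM) and Group 2 (0.33 to 0.64 TPM), beside 9.82% of all genes, with a log2 fold change of 0.71 (limma adjusted p = 0.993). CXCR1, CXCR2, CXCR4 and ACKR1 were not analysed here.

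CCR1, a receptor of CCL5, lay between 3.43 and 21.1 TPM. ACKR3, a scavenging receptor of CXCL12, was the most abundant receptor, at 47.1, 105 and 255 TPM in pigs 27, 28 and 30, at 35.3 to 94.3 TPM in Group 2 and at 49.4 to 203 TPM in Group 3. CCR1 and ACKR3 were each higher in pig 30 than in pigs 27 and 28, whereas CXCL2, CXCL8 and CCL2 were highest in pig 28.

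Proteins that cut or hold chemokines were represented by 12 of 14 symbols, all of which passed the filter. Between Group 1 and Group 2, 2 of 12 reached an unadjusted limma p under 0.05, both lower in Group 1, beside 4.97% of all genes. With array weights 3 did (EXT2 was added), beside 15.4% of all genes. ADAM10, the protease that sheds CX3CL1 from the cell surface, was at 8.49, 14.8 and 18.2 TPM against 26.5, 24.6 and 30.3 TPM (log2 fold change -0.98, limma adjusted p = 0.901). DPP4, which trims the end of many chemokines, was at 8.69, 7.998 and 6.59 TPM against 10.04, 15.8 and 17.5 TPM (log2 fold change -0.79, limma adjusted p = 0.943). Neither gene overlapped between these groups, and SDC1, a syndecan named after its values were seen, did not overlap in the other direction (2.42 to 4.20 against 1.15 to 2.31 TPM), so 3 of 12 did not overlap, beside 9.82% of all genes. In the second comparison 0 of 12 reached that level (2, GPC1 and SDC1, with array weights), beside 7.22% of all genes (15.8% with array weights), and in the third 1 did (2, EXT2 and GPC1, with array weights), beside 6.01% (15.9%), the proteoglycan GPC1 with a log2 fold change of 1.18 (limma adjusted p = 0.471), or 0.71 without pig 30 or with array weights. GPC1 was at 116 TPM in pig 30 and at 48.7 and 37.2 TPM in pigs 27 and 28, against 22.9 to 27.4 TPM in Group 3.

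The cytokines and signalling genes known to induce chemokines held 18 of 22 symbols, with 2 listed at 0 in every heart and 14 past the filter. Between Group 1 and Group 2, 3 of 14 reached an unadjusted limma p under 0.05, all higher, beside 4.97% of all genes, and 0 were called. With array weights 6 reached that level, beside 15.4% of all genes, and 1, TNFAIP3, was called. The 6 included HIF1A, a transcription factor of the hypoxia response, which was lower in all 3 hearts of Group 1 (31.4 to 83.5 TPM) than in Group 2 (88.8 to 121 TPM), with a log2 fold change of -0.83 without weights. The median log2 fold change of the 14 was 0.40. IL1A (interleukin 1 alpha), an inducer of NF-kB, was at 4.65, 13.0 and 9.35 TPM in pigs 27, 28 and 30 and at 1.44, 3.22 and 1.97 TPM in pigs 24, 25 and 29, a log2 fold change of 1.58 (limma adjusted p = 0.479). REL, an NF-kB subunit, was at 12.6, 14.3 and 17.6 TPM against 7.25, 6.53 and 6.09 TPM, a log2 fold change of 1.05 (limma adjusted p = 0.668). TNFAIP3 (A20), an inhibitor that NF-kB induces, was at 28.7, 57.0 and 42.9 TPM against 15.6, 9.58 and 9.38 TPM, a log2 fold change of 1.79 (limma adjusted p = 0.199; 0.0247 with array weights). These 3 genes and NFKB2 (36.7 to 60.3 against 28.7 to 31.2 TPM, named after its values were seen) were higher without overlap and HIF1A was lower, so 5 of 14 did not overlap, beside 9.82% of all genes. TNF itself was at 0.69 to 2.495 TPM over the 9 hearts.

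In the second comparison 0 of these 14 genes reached an unadjusted limma p under 0.05, beside 7.22% of all genes (3, HIF1A, IRF1 and RELA, with array weights, beside 15.8%). Their median log2 fold change was -0.08. Of the 14, 2 did not overlap, beside 14.7% of all genes, and lay lower in Group 3. HIF1A was at 34.6 to 86.4 TPM (log2 fold change -0.80), so it lay below Group 2 in Groups 1 and 3 alike. IFNGR1, named after its values were seen, was at 26.1 to 36.3 TPM (log2 fold change -0.50). In the third comparison 5 of 14 reached an unadjusted limma p under 0.05, beside 6.01% of all genes, all higher in Group 1, with log2 fold changes of 2.04 for TNFAIP3, 1.65 for IL1A, 1.41 for NFKB1, 0.86 for NFKBIZ and 0.82 for REL. With array weights 7 of 14 did, beside 15.9% of all genes, with NFKBIA and TNFRSF1A added, and the log2 fold change of TNFRSF1A, a TNF receptor, was -0.35 without weights. With array weights the value of NFKB1 was 0.94, and without pig 31 that of REL was 0.52. The smallest adjusted p of the 5 genes was 0.140, for TNFAIP3. TNF lay lower in Group 1 (0.77 to 1.61 TPM) than in Group 3 (1.63 to 2.495 TPM), and 7 of 14 did not overlap, 6 of them higher in Group 1, beside 7.48% of all genes.

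**Figure D4:**
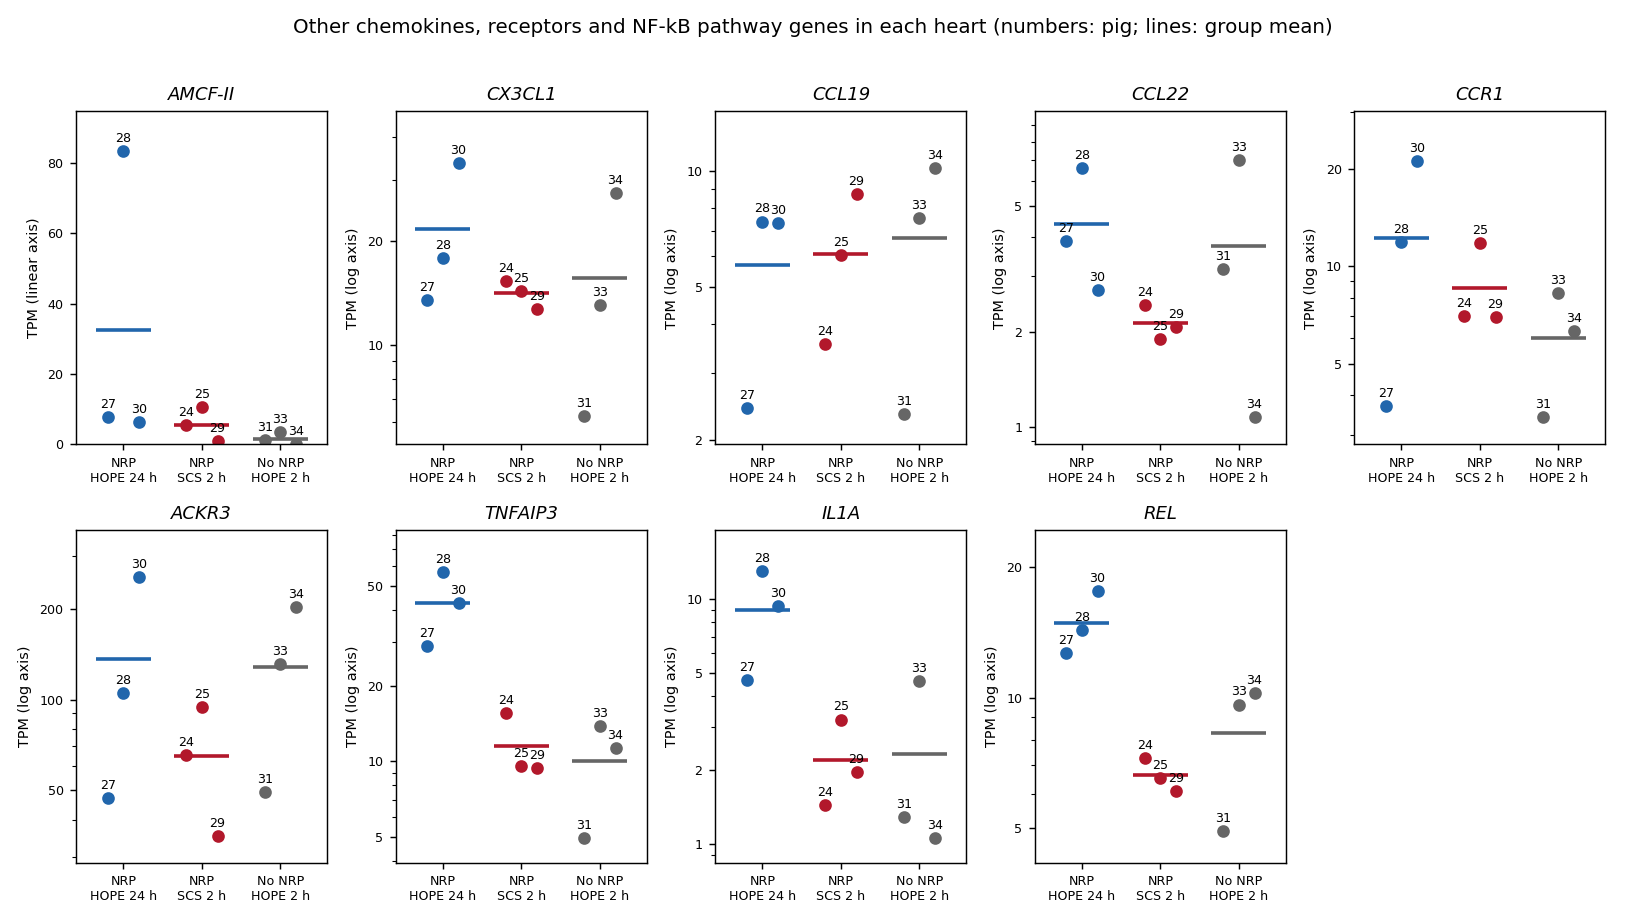
TPM of 4 other chemokines, 2 receptors and 3 NF-kB pathway genes in each heart by group, with the pig number above each point and a line at the group mean (linear axis from 0 for AMCF-II, log axes for the rest). TNFAIP3, IL1A and REL lie higher in all 3 hearts of Group 1 than in all 3 of Group 2, AMCF-II stands out in pig 28 alone at 83.4 TPM, and the 2 receptors shown overlap between groups.

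Markers of the cells that chemokines attract were followed in the same biopsies. Of 12 neutrophil markers 7 were found, with MPO and CSF3R listed at 0 in every heart, and their sum was 3.02 to 7.40 TPM in Group 1, 6.38 to 16.9 TPM in Group 2 and 1.82 to 6.22 TPM in Group 3. S100A9, an abundant neutrophil protein, was at 0.36, 0.77 and 2.66 TPM in pigs 27, 28 and 30 and at 8.02, 4.78 and 1.79 TPM in pigs 24, 25 and 29, a log2 fold change of -1.35 (limma adjusted p = 0.792). Without NRP it was at most 0.34 TPM, with a log2 fold change against Group 2 of -2.17 (limma adjusted p = 0.140, but 0.0200 with array weights and 0.0494 without pig 29). With a pseudocount of 0.1 these log2 fold changes were -2.03 and -4.16.

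Monocyte and macrophage markers (8 of 12 found, 0 listed at 0 throughout) summed to 67.1 to 156 TPM in Group 1, 83.9 to 200 TPM in Group 2 and 119 to 234 TPM in Group 3. Of the 7 tested, 0 reached an unadjusted limma p under 0.05 in any comparison, beside 4.97%, 7.22% and 6.01% of all genes. With array weights 0, 0 and 1 (LYVE1) did, beside 15.4%, 15.8% and 15.9% of all genes. The most abundant of these markers were C1QA, a complement component of macrophages, at 31.5 to 179.7 TPM, CD68 at 9.17 to 33.2 TPM and CD14 at 6.31 to 12.9 TPM. T and NK cell markers (14 of 16 found, NCR1 listed at 0) summed to 15.7 to 65.1, 23.7 to 51.9 and 19.0 to 79.9 TPM, led by the cytotoxic granule gene GNLY at 3.345 to 37.0 TPM, NKG7 at 2.24 to 9.94 TPM and GZMB at 0.56 to 6.38 TPM. B cell markers (2 of 5 found, CD79B and MS4A1) stayed at or under 1.03 TPM in sum and platelet markers (2 of 6 found, ITGA2B and GP1BA) at or under 2.72 TPM.

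Red cell transcripts were higher in 5 of the 6 HOPE hearts than in any SCS heart. Erythroid markers (4 of 6 found) summed to 73.9 TPM in pig 27, 343 in pig 28 and 425 in pig 30 of Group 1, to 71.4 to 133 TPM in Group 2 and to 222 to 373 TPM in Group 3. HBB, the beta chain of hemoglobin, had a log2 fold change of 1.27 (limma adjusted p = 0.943) in the first comparison, or 2.05 without pig 27 and 0.80 without pig 30, and 1.52 (limma adjusted p = 0.516) in the second. ALAS2, the first enzyme of heme synthesis in red cell precursors, had one of 1.14 (limma adjusted p = 0.658) in the second, or 1.73 with a pseudocount of 0.1. With array weights HBB and ALAS2 reached an unadjusted limma p under 0.05 in the first and second comparisons, beside 15.4% and 15.8% of all genes. Pig 27, with 804 TPM of CXCL2, had an erythroid sum within the range of the SCS hearts, and pig 28, with 1468 TPM, had one of 343. A relation of CXCL2 to red cell transcripts was not tested.

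Smooth muscle and pericyte markers (7 of 8 found, MYH11 listed at 0) summed to 236 to 439, 339 to 481 and 453 to 516 TPM in Groups 1, 2 and 3, and 2 of the 6 tested reached an unadjusted limma p under 0.05 in the third comparison, beside 6.01% of all genes. These were ACTA2 with a log2 fold change of -1.28 (limma adjusted p = 0.402) and NOTCH3 with -1.05 (limma adjusted p = 0.751), while CNN1, named after its values were seen, had 0.40. The value of ACTA2 was -0.81 without pig 27, and that of NOTCH3 was -1.59 with array weights. With these weights KCNJ8 and PDGFRB reached an unadjusted limma p under 0.05 in the first comparison and NOTCH3 in the second. In the third PDGFRB was added to ACTA2 and NOTCH3. The shares of all genes with these weights were 15.4%, 15.8% and 15.9%. Endothelial markers (6 of 8 found) summed to 228 to 534, 431 to 502 and 235 to 542 TPM, fibroblast markers (6 of 8 found) to 787 to 1189, 700 to 1017 and 1087 to 1210 TPM, and cardiomyocyte markers (9 of 11 found) to 31809 to 60715, 38034 to 50132 and 37661 to 51586 TPM. FBLN1, an extracellular matrix protein, was the 1 fibroblast marker of 6 at an unadjusted limma p under 0.05 without weights. This was for Group 3 against Group 2 (log2 fold change 0.79, limma adjusted p = 0.684), beside 7.22% of all genes. There 5 of the 6 had a log2 fold change above 0 and 1, PDGFRA, had -0.40. In that comparison 3 of 6 lay higher in Group 3 without overlap, where 14.7% of all genes did not overlap. With array weights FBLN1 alone of the 6 reached an unadjusted limma p under 0.05 there, beside 15.8% of all genes. It also did so for Group 1 against Group 3, beside 15.9%. ACTC1, cardiac actin, was the 1 cardiomyocyte marker of 9 at an unadjusted limma p under 0.05 without weights. This was for Group 1 against Group 3 (log2 fold change 0.76, limma adjusted p = 0.829), beside 6.01% of all genes. The value of ACTC1 was 0.37 without pig 33, 0.47 without pig 30 and 1.19 with array weights. With these weights MYBPC3, RYR2 and TNNI3 reached that level for Group 1 against Group 2, beside 15.4% of all genes. ACTC1 did in both comparisons with Group 3. The endothelial markers were led by PECAM1, EGFL7 and KDR. Of the 6 endothelial markers 6 had a log2 fold change below 0 in the first comparison, with a median of -0.47 beside -0.12 over all genes. TEK, an endothelial receptor kinase, did not overlap there (log2 fold change -0.68, limma adjusted p = 0.993), and 0 of 6 reached an unadjusted limma p under 0.05, or 2 (EGFL7 and TEK) with array weights, beside 15.4% of all genes with those weights and 9.82% without overlap. The part of red cells, of endothelium, of leukocytes and of the vessel wall in the chemokine levels was not tested.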

How the data were processed

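RNA was taken from 1 apex biopsy of each of 9 pig hearts. Per the submitters' processing notes and the methods, the authors enriched mRNA, trimmed reads (Trimmomatic 0.36), aligned them to the Sus scrofa genome (STAR 2.5.2b) and counted unique exonic reads (featureCounts, Subread 1.5.2). The authors deposited TPM values for 25149 genes, of which 12006 had no symbol. The genome build and the gene lengths behind TPM are not given in the sources used here. TPM hold no depth, which is unknown here, so no counting interval is given and the spread between hearts shows the precision. A further 9 columns could not be tied to a sample and were not used. No sequence was used, and gene positions served only to order neighbouring genes.

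Where the authors used DESeq2 on counts, log2(TPM + 1) of all 9 hearts was fitted here instead with limma 3.58.1 in R 4.3.3 (1 mean per group, eBayes with trend, two-sided). The filter of 1 TPM or more in 3 or more hearts left 11782 genes, over which the Benjamini-Hochberg adjustment was made in each comparison. The fit was tested on simulated data drawn with a reduced spread between hearts. That test does not cover genes as variable as CXCL2 and CXCL8. Exact permutation tests and correlations used Python 3.11.15, numpy 2.4.6, pandas 2.3.3 and scipy 1.17.1, and figures matplotlib 3.10.9. Pigs are not shared between groups, and the labels give no batch. Where a gene is listed at 0 in every heart, a failed estimate is possible. A further 3 genes of the lists are not reported here.

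The chemokines and the gene lists, written from general knowledge, were chosen with earlier results of these data known. Of each list, genes with an unadjusted p under 0.05 in a comparison were named (at most 5), otherwise the 3 with the highest mean TPM, besides the receptors of the chemokines and, for CXCL8 and CCL2, the 5 genes most alike. Genes named only for array weights, overlap or direction lie outside this rule. Alternatives were a pseudocount of 0.1, array weights (statmod 1.5.0), eBayes without trend, a fit of only 6 hearts, quantile normalization or median-of-ratios scaling, removal of mitochondrially encoded genes, no filter or a mean of 5 TPM, and leaving out each heart. Alternatives for the correlations and overlaps, and the exact tests of sums and ratios within hearts, were added after the data were seen.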

Additional observations from a re-analysis of the deposited data

How the results depend on the processing

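The count of 0 of 5 chemokines at the adjusted threshold held in all 3 comparisons under every alternative run, each heart left out included, except that array weights gave 2 (CXCL2 and CXCL8) between Group 1 and Group 2, where those weights also raised the calls over all genes from 3 to 60. With a mean TPM of at least 5, which leaves 3 of the 5 chemokines, the median log2 fold change of that comparison was 2.48. With each heart left out it was 0.80 to 1.38, and the range was -0.0452 to 0.61 for Group 3 against Group 2 and 0.60 to 1.21 for Group 1 against Group 3. The log2 fold changes of Group 1 against Group 2 were 1.88 to 3.31 for CXCL2, 1.76 to 3.09 for CXCL8, 0.65 to 1.17 for CCL2, 0.74 to 1.38 for CXCL14 and 0.21 to 0.84 for CCL5 with each heart left out. Under the other alternatives that of CXCL14 was 0.92 to 1.61 (unadjusted limma p 0.0302 to 0.0986).

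Some differences between groups turned sign, and the cause was not tested. For Group 3 against Group 2, CXCL2 was 0.0226 with array weights, 0.21 without pig 24 and 0.22 without pig 34 (range -0.72 to 0.22 with each heart left out), CCL2 was -0.21 without pig 29 and -0.25 without pig 33 (range -0.25 to 0.21), and CXCL14 was -0.0452 without pig 33 (range -0.0452 to 0.93). For Group 1 against Group 3, CCL5 was 0.00612 after median-of-ratios scaling, 0.0317 after quantile normalization, 0.31 without pig 27 and 0.08 without pig 33 (range -0.24 to 0.31), and CXCL14 was -0.30 with array weights.

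The correlation of CXCL2 with CXCL8 ranged from 0.45 (without pig 28, permutation p = 0.276) to 0.82 with each heart left out, and was 0.68 (permutation p = 0.0688) without pig 29. That of CCL2 with CXCL8 ranged from 0.85 to 0.97. Median-of-ratios scaling moved the median of all genes between Group 1 and Group 2 from -0.12 to 0.00 and gave log2 fold changes of 2.652, 2.600 and 1.099 for CXCL2, CXCL8 and CCL2. No paired analysis was possible because no pig is shared between groups. The counts of 3, 0 and 1 chemokines whose groups did not overlap were the same after median-of-ratios scaling and after removal of the mitochondrially encoded genes, but between Group 1 and Group 2 CXCL14 took the place of CXCL2 under both. With 3 hearts a group an exact test cannot give a p under 0.1.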
